A study of Gallus gallus with 41 samples.

Results

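The globin genes described here are HBA1, HBAD, HBZ, HBE and HBBR, measured in single cells taken from the retina of chick embryos. They were chosen by name, as the probe sets whose only gene symbol on the array annotation is one of these 5, among 13009 genes that have a symbol of their own. They hold 9 probe sets of 38439 used. A further 2 probe sets carry several globin symbols, HBBR with HBBA and HBE1 with HBBA. They were followed beside the members but are not counted among them.

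The study profiled 41 cells, each on its own Affymetrix chicken array, with 6 cells at embryonic day 3 (E3), 3 at E4, 5 at E5, 10 at E6, 1 at E7, 6 at E9, 8 at E14 and 2 at E15. All were untreated cells of chick embryos of no stated genotype or strain, freed from the retina with papain and picked up singly in a glass pipette. Their RNA was copied from oligo dT, tailed with terminal transferase and amplified by 35 cycles of PCR before labelling. The labels name no embryo, so the cells of 1 age count as 1 sample, and spreads between cells mix cell identity with the yield of the amplification.

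Hemoglobin is built from alpha-type and beta-type chains. In the chick, the primitive red cells made by the yolk sac carry the embryonic alpha-type chain pi (HBZ) and the embryonic beta-type chains rho (HBBR) and epsilon (HBE). The definitive red cells that replace them carry the adult beta chain (HBBA). The alpha-A chain (HBA1), the main adult alpha chain, and the alpha-D chain (HBAD) are made in both kinds of cell. Birds also have a separate globin of the eye, globin E (GBE). HBZ, HBAD and HBA1 are neighbours on the chromosome in the RefSeq annotation of GRCg7b, and so are HBE, HBBA, HBE1 and HBBR.

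Values are log2 MAS5 signals. For each array, the 80th and the 95th percentile of its own probe sets served as a lower and a higher mark, at 5.47 to 9.81 and 9.07 to 12.87 over the arrays. The lower mark is weak, since 65% of all probe sets reached it in at least 3 cells, against 17.5% for the higher mark. Means, SDs and summed levels are over values raised to a floor of 5.0, the median of the whole table, and single values are as deposited. Precision is limited by the number of arrays, and the intervals on shares of cells are exact binomial (Clopper-Pearson) 95% intervals that cover counting error only. In 6 arrays, all 3 of E4, E6 replicate 7 and both of E15, the median signal was 6.82 to 7.87, against 3.90 to 5.50 in the other 35. The part of this raised median in the globin values of those arrays was not tested. The deposited values of no pair of cells were identical, and the highest correlation between any pair was 0.848.

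The library labelled E3 replicate 6 stood apart from the other cells of E3. None of the 9 measured genes of the retinal progenitor list reached the higher mark in it, against 2 to 4 in the other 5 cells, though 4 of 9 passed the lower mark, as in replicates 1, 2 and 3. Vimentin (VIM), an intermediate filament of progenitors and glia, read 4.44 there and 14.84 to 16.70 in the other 5. Nestin (NES), another intermediate filament of progenitors, read 11.08 against 14.35 to 16.27. PAX6, a transcription factor of the eye field, read 6.58 there but 1.40 and 1.38 in replicates 1 and 5. Retinal neuron genes did not set it apart, as replicates 1, 2 and 5 also had 0 of 10 at the higher mark. The red cell genes of this library are given further on, and E3 means, counts, orders of ages and correlations between the member genes are given with and without it.

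**Figure D1:**
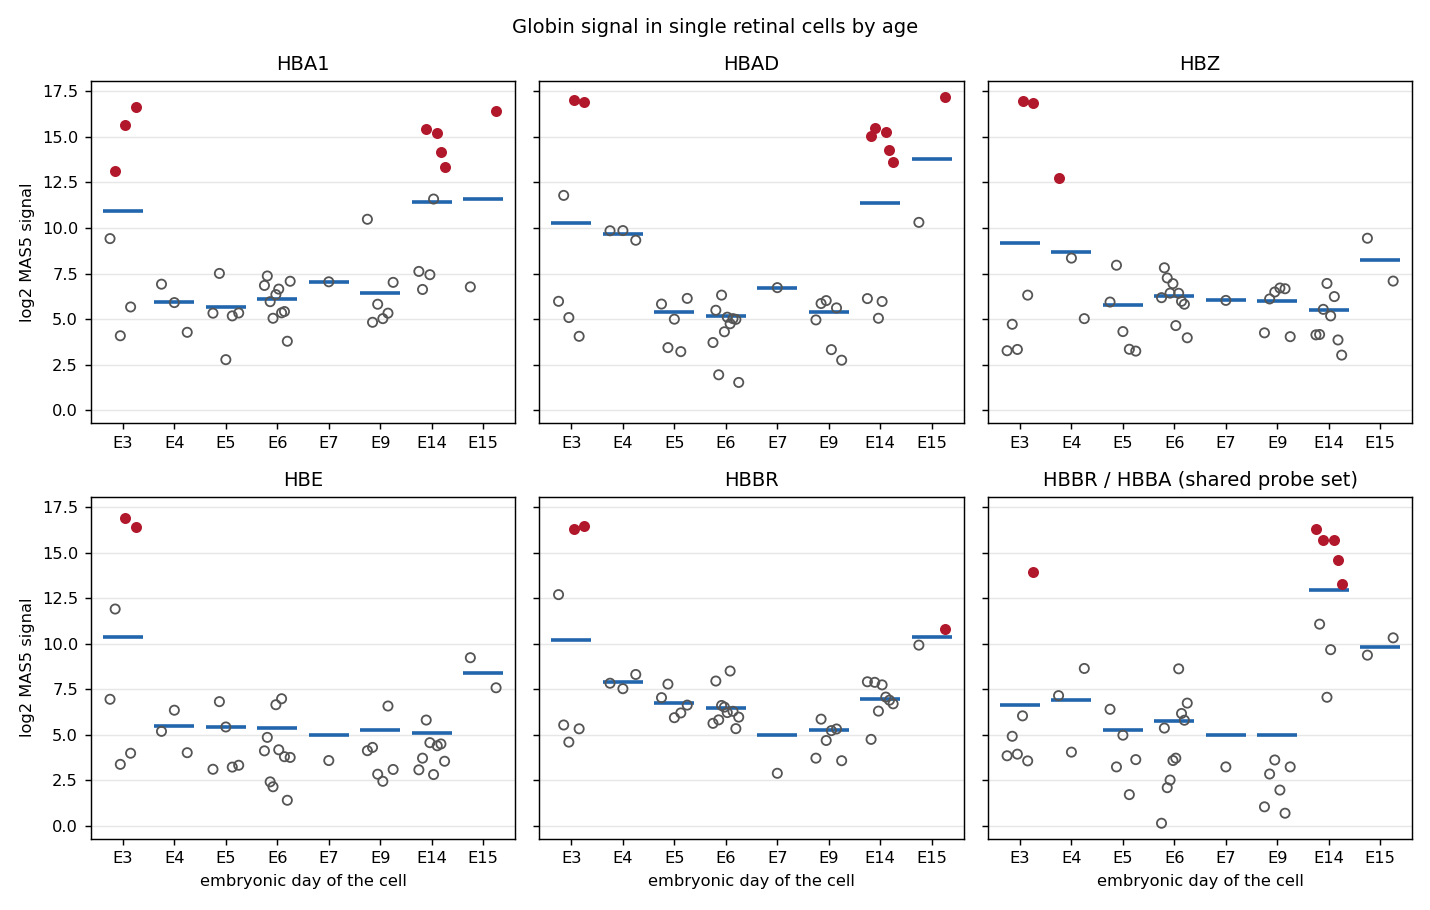
Deposited log2 MAS5 signal (y axis) of the probe set with the highest mean for each globin, and of the probe set shared by HBBR and HBBA, in each cell (points, offset by replicate) by embryonic day (x axis). Filled red points reach their array's 95th percentile, open points do not, and blue bars are means with values floored at 5.0. From E5 to E9 no filled point appears in any panel, and at E14 filled points appear for HBA1, HBAD and the shared probe set.

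At the higher mark, the globins were found at the early and late ages. The embryonic HBZ, HBE and HBBR reached it together in 2 cells of E3, 1 of them replicate 6, and in those cells HBA1 and HBAD reached it too. HBZ also reached it in 1 cell of E4, and HBBR, by a narrow margin, in 1 cell of E15. None of the 5 genes reached it in any of the 22 cells of E5, E6, E7 and E9. This count allows a share of up to 15.4% of cells if they are independent draws, but cells of 1 age count as 1 sample. Of all probe sets, 66.6% reached this mark in no cell of the series. The share for these 22 cells alone was not counted. At the lower mark, HBBR was found in 7 of the 22, HBZ and HBA1 in 6 each, HBE in 2 and HBAD in 1. On their next probe sets HBA1 was found in 2 and HBAD in 4. At E14, HBA1 and HBAD reached the higher mark in 4 and 5 of 8 cells, while HBZ, HBE and HBBR did so in none. Over all probe sets of the members, 6 of 9 reached the higher mark in at least 3 cells, where the share over the whole array was 17.5%. Of these, HBZ and HBBR did so in 3 cells each, 1 of them E3 replicate 6, and fall short without it. The others are a pair of probe sets of HBA1 and a pair of HBAD, each pair at the higher mark in the same 8 cells.

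HBA1, which encodes the alpha-A chain, read 9.42, 13.15, 4.09, 15.64, 5.67 and 16.63 in E3 replicates 1 to 6. Of these 6 cells, 3 lay above the higher mark and 2 lay near the floor. It read 7.62, 6.63, 15.41, 7.44, 11.59, 15.22, 14.16 and 13.34 in E14 replicates 1 to 8. The E14 cells split into 4 above the higher mark (95% interval of the share 15.7 to 84.3%) and 4 below it, and they overlapped the E3 cells over nearly the whole range.

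Between those ages HBA1 was low. Its mean was 10.92 ± 4.99 (SD, n = 6 cells) at E3 (9.78 ± 4.62 without replicate 6), 6.11 ± 0.87 (n = 10) at E6, 6.45 ± 2.12 (n = 6) at E9 and 11.43 ± 3.68 (n = 8) at E14. The E14 mean exceeded the E9 mean by 4.98 log2 units, and the E3 mean exceeded the E6 mean by 4.81, or by 3.67 without E3 replicate 6. The highest value from E5 to E9 was 10.48 in E9 replicate 1, below the higher mark of that array. The cells of E15, replicates 2 and 3, read 6.77 and 16.43 and so stood at opposite ends of the range. Among ages with at least 1 cell at the lower mark, the mean levels ran E15, E14, E3, E9, E6 and E5, with or without replicate 6 of E3. No neighbours in that order differed beyond the larger of their SDs. Ages with no cell at the lower mark are left unordered here and for the other members.

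HBAD, which encodes the alpha-D chain, read 5.98, 11.79, 5.09, 17.01, 4.06 and 16.93 in the E3 cells. Replicates 4 and 6 were far above the higher mark and the other 4 were below it. At E14 it read 6.13, 15.07, 15.48, 5.05, 5.97, 15.25, 14.26 and 13.64. Here 5 of 8 cells (95% interval 24.5 to 91.5%) were above the higher mark, and none of the other 3 reached even the lower mark. No cell lay between on this probe set, but on the next probe set of HBAD replicate 1 did, at 8.64.

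The HBAD mean was 10.30 ± 5.75 (n = 6) at E3 (8.98 ± 5.30 without replicate 6), 5.20 ± 0.42 (n = 10) at E6, 5.42 ± 0.47 (n = 6) at E9 and 11.36 ± 4.72 (n = 8) at E14. From E5 to E9 its highest value on this probe set was 6.73, in the cell of E7. The other probe sets of HBAD reached 8.77 and 9.57, in E6 replicate 7, an array of raised median. E14 exceeded E9 by 5.94 log2 units. At E4 the 3 cells read 9.85, 9.86 and 9.33, all above the lower and below the higher mark, in arrays of raised median. On the next probe set they read 8.48, 10.05 and 8.97, and only 1 passed the lower mark. In E15 the values were 10.31 and 17.21, and only replicate 3 passed the higher mark. The ages with a cell at the lower mark ran E15, E14, E3, E4 and E5, and only E4 and E5 (4.29 apart) differed beyond the larger SD. After quantile normalization these means were 8.09 and 6.09. Without replicate 6, E4 came before E3, and no neighbours differed beyond the larger SD.

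HBZ, the embryonic alpha-type chain pi, read 3.27, 4.72, 3.34, 16.96, 6.32 and 16.85 at E3. Only replicates 4 and 6 carried it at the higher mark. The 3 cells of E4 read 12.76, 8.35 and 5.03 in arrays of raised median. The first of them was the only other cell of the 41 at the higher mark, which was 11.59 in its array. At E14 the 8 cells ranged from 3.03 to 6.96 with a median of 4.67, and none was at the higher mark, which allows a share of up to 36.9%. The E14 mean, 5.49 ± 0.73 (n = 8), differed from the E3 mean of 9.19 ± 6.0 (n = 6) by -3.70 log2 units, or by -2.16 without E3 replicate 6. Both gaps were smaller than the SD between the E3 cells. The E15 cells read 9.44 and 7.09 in arrays of raised median, both under the lower mark. The ages with a cell at that mark ran E3, E4, E6, E9, E5 and E14, with E4 before E3 without replicate 6, and no neighbours differed beyond the larger SD.

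HBE, the embryonic beta-type chain epsilon, read 6.95, 11.90, 3.38, 16.87, 3.99 and 16.42 at E3. Replicates 4 and 6 were again the cells at the higher mark, with replicate 2 between them and the rest. In the 35 cells of later ages it stayed below that mark, and at E14 it ranged from 2.82 to 5.81 with a median of 4.06. The E14 mean of 5.11 ± 0.29 (n = 8) differed from the E3 mean of 10.36 ± 5.49 (n = 6) by -5.25 log2 units, or by -4.04 without E3 replicate 6. The E15 cells read 9.23 and 7.58 in arrays of raised median, both under the lower mark. The ages with a cell at that mark ran E3, E5 and E9, with or without replicate 6, and no neighbours differed beyond the larger SD.

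HBBR, the embryonic beta-type chain rho, read 12.69, 5.54, 4.60, 16.27, 5.33 and 16.44 at E3. Replicate 1 was just under the higher mark of its array, and replicates 4 and 6 were above it. All 5 cells of E5 passed the lower mark, with values of only 5.94 to 7.78 and none at the higher one. At E14 the range was 4.75 to 7.91 with a median of 6.98. The mean of E14, 6.94 ± 0.98 (n = 8), differed from that of E3, 10.21 ± 5.56 (n = 6), by -3.28 log2 units, or by -2.03 without E3 replicate 6. In E15 the values were 9.92 and 10.82, in arrays of raised median. The second only just passed the higher mark of its array, 10.76. The ages with a cell at the lower mark ran E15, E3, E14, E5 and E6, with or without replicate 6, and no neighbours differed beyond the larger SD. Quantile normalization put E5 (8.54) before E14 (7.55).

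The adult beta chain HBBA was followed only through the shared probe sets, in which it cannot be told from the other gene named. The one annotated to HBBR and HBBA read 3.85, 4.92, 3.94, 6.04, 3.57 and 13.92 at E3. Only replicate 6 was high, and replicate 4, in which HBBR on its own probe set read 16.27, was not. At E14 it read 16.31, 11.07, 15.71, 7.06, 9.67, 15.66, 14.60 and 13.29, with 8 of 8 cells at the lower and 5 of 8 at the higher mark. At E9 all 6 cells lay between 0.70 and 3.62, below the lowest cell of E14. The share of all probe sets that part the cells of these ages in the same way was not counted. The E14 mean was 12.92 ± 3.34 (n = 8), which was 7.92 log2 units above the floored mean of E9 and 6.26 above that of E3, or 7.71 without E3 replicate 6. E14 replicate 1 had this signal at 16.31 with HBA1 at 7.62 and HBAD at 6.13. The probe set annotated to HBE1, the beta-type chain of hatching, and HBBA read 16.15 in E3 replicate 6 and 14.91 in E14 replicate 3, the only cells at the higher mark.

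**Figure D2:**
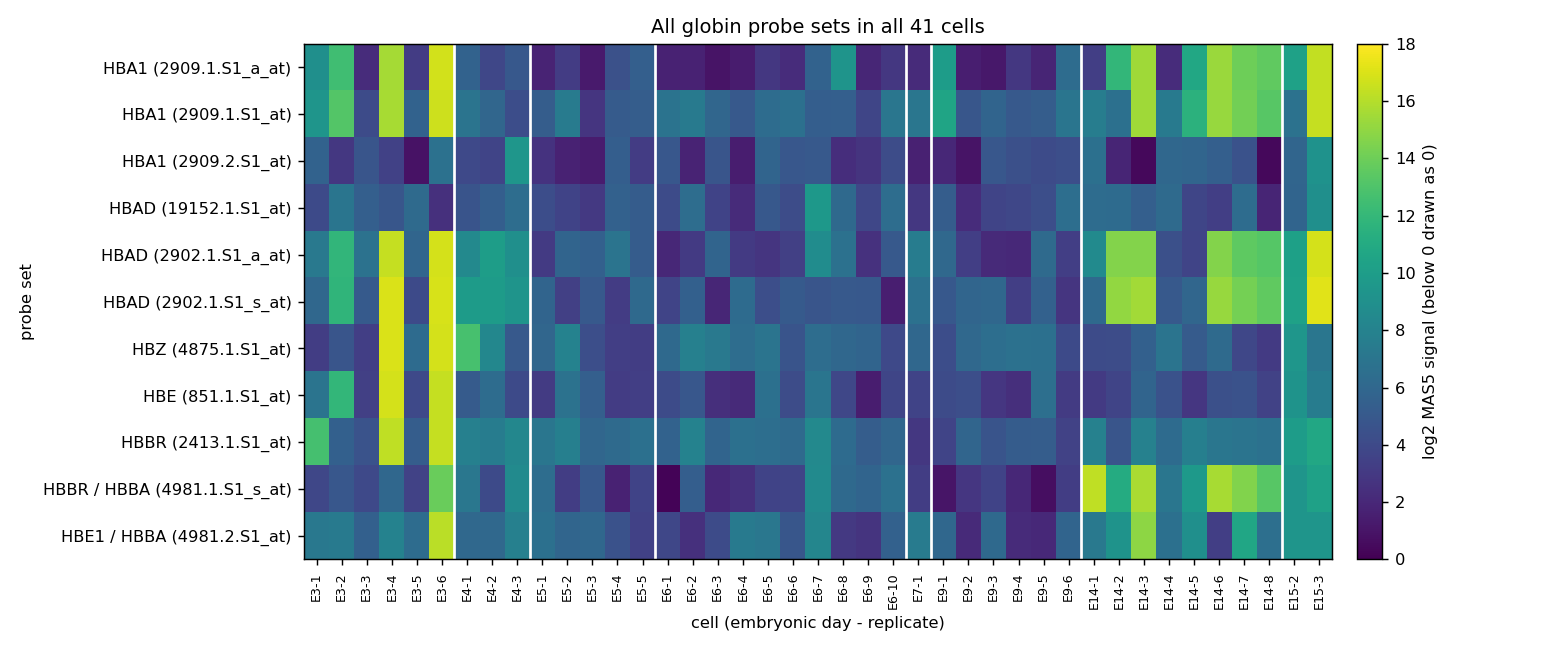
Deposited log2 MAS5 signal (colour) of the 9 probe sets of the 5 globin genes and of the 2 shared probe sets (rows) in all 41 cells (columns, ordered by embryonic day and replicate). The columns of E3 replicates 4 and 6 are bright in all 5 genes, and the bright cells of E14 are so in HBA1, HBAD and the HBBR and HBBA probe set, with E14 replicate 3 bright in the HBE1 and HBBA probe set too.

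Cell by cell, 2 cells of E3 carried all 5 genes at the higher mark, 1 carried HBA1 alone (replicate 2) and 3 carried none. At E4, 1 cell carried HBZ alone and the other 2 carried none. At E14, replicates 3, 6, 7 and 8 carried HBA1 with HBAD, replicate 2 carried HBAD alone, and replicates 1, 4 and 5 carried neither. In E15, replicate 3 carried HBA1, HBAD and, only just, HBBR (10.82 against a mark of 10.76), and replicate 2 carried none. With E3 replicate 6 left out, 5 cells of E3 remained, of which 2 had HBA1 at the higher mark and 1 had HBAD, HBZ, HBE and HBBR.

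Over the 41 cells, the signals of HBA1 and HBAD had a Pearson r of 0.81 and were both at the higher mark in 7 cells, with 1 further cell for each alone. HBZ and HBE had r = 0.78, HBZ and HBBR 0.74, and HBE and HBBR 0.79. HBA1 had r = 0.35 with HBZ, 0.55 with HBE and 0.57 with HBBR. Without E3 replicate 6, over 40 cells, r was 0.79 for HBA1 with HBAD, 0.66 for HBZ with HBE, 0.62 for HBZ with HBBR and 0.69 for HBE with HBBR. In those cells HBA1 had r = 0.18 with HBZ, 0.44 with HBE and 0.47 with HBBR. The probe set of HBBR and HBBA had r = 0.64 with HBA1, 0.67 with HBAD, 0.08 with HBZ, 0.12 with HBE and 0.32 with HBBR, or 0.59, 0.64, -0.12, -0.07 and 0.19 without that library. These r are descriptions over 41 cells that share ages and amplification, and the few cells with high signal carry most of them. By rank, Spearman's rho over 41 cells was 0.51 for HBA1 with HBAD. Among the embryonic members it was 0.44 for HBZ with HBE, 0.37 for HBZ with HBBR and 0.53 for HBE with HBBR. For HBA1 it was 0.42 with HBBR, 0.34 with HBE and 0.10 with HBZ. For HBAD it was 0.47 with HBBR, 0.32 with HBE and 0.14 with HBZ. Without E3 replicate 6, rho was 0.47 for HBA1 with HBAD, 0.39 for HBZ with HBE, 0.32 for HBZ with HBBR and 0.49 for HBE with HBBR. In those 40 cells HBA1 had 0.38 with HBBR, 0.28 with HBE and 0.03 with HBZ, and HBAD had 0.43, 0.25 and 0.07. The values within and between the kinds of chain thus overlapped, through the pairs with HBBR.

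**Figure D3:**
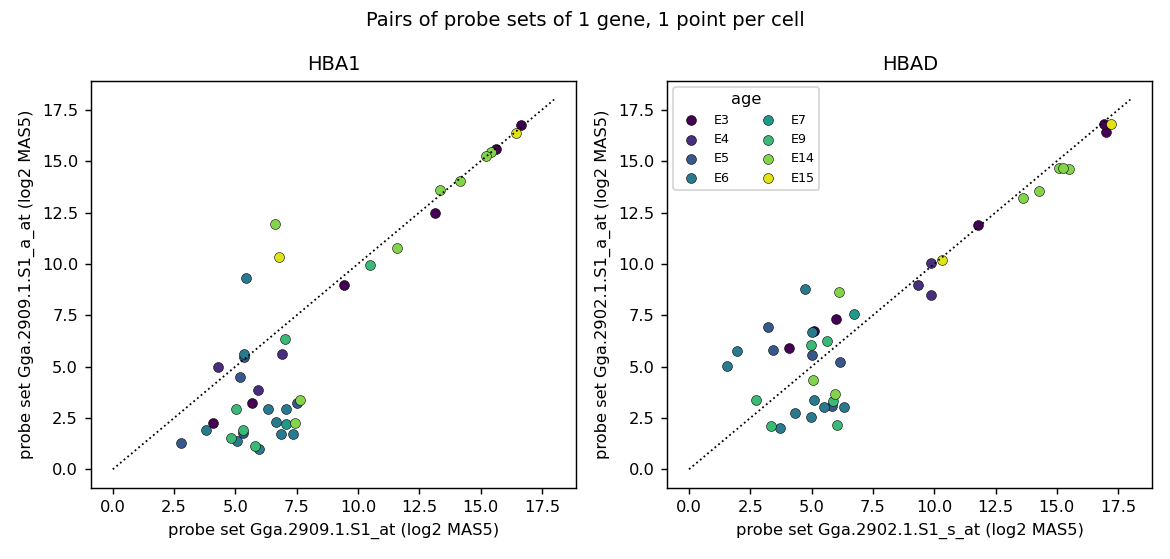
Deposited log2 MAS5 signal of one probe set (x axis) against another probe set of the same gene (y axis) for HBA1 and HBAD, 1 point per cell coloured by embryonic day, with the line of equal values dotted. Cells above the higher mark lie along the line. Below it the probe sets of both genes part in some cells, as for HBA1 in an E14 cell at 6.63 and 11.94.

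Probe sets of the same gene gave the same cells at the higher mark for the most part. For HBA1, the probe set with the highest mean and the next had r = 0.92 over 41 cells and were both at the higher mark in the same 8 cells. Below that mark they disagreed in several cells. The second read higher in E14 replicate 2, at 6.63 and 11.94, in E15 replicate 2, at 6.77 and 10.33, and in E6 replicate 8, at 5.42 and 9.31. It read lower in E6 replicates 1 (6.85 and 1.70) and 2 (7.37 and 1.73), E7 (7.05 and 2.19) and E14 replicate 4 (7.44 and 2.27), among others. At the lower mark the first had 3 cells of E6 and 8 of E14, and the second had 1 and 6. For HBAD, the corresponding pair had r = 0.97 and shared 8 cells at the higher mark. They too disagreed below it. At the lower mark the first had 3 cells of E3, 3 of E4 and 1 of the 22 from E5 to E9. The second had 6, 1 and 4. The third probe set of each gene behaved otherwise: that of HBA1, with a highest value of 9.43, and that of HBAD, with a highest value of 9.57, reached the higher mark in no cell. HBZ, HBE and HBBR have 1 probe set each.

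Change with age was tested as the slope of the 8 time point means on embryonic day, by limma across 24981 probe sets. Of the 8 member probe sets that passed the filter on low values (at the lower mark in at least 3 cells), none rose or fell at a Benjamini-Hochberg adjusted p under 0.05. Over all probe sets tested, 0.132% rose and 0% fell. At an unadjusted p under 0.05, 3 of the 8 rose, against 3.52% of all, and 0 fell, against 1.16%. The 3 belong to HBA1 and HBAD only and vary together (r of 0.81 to 0.92 over the cells), so they are not separate results. The slope of HBA1 was 0.32 ± 0.15 (SE) log2 units per day with a limma adjusted p of 0.936. The HBAD slope was 0.35 ± 0.16 with a limma adjusted p of 0.934. Those of HBZ (-0.17 ± 0.11), HBE (-0.17 ± 0.10) and HBBR (-0.08 ± 0.13) each had an adjusted p of 1. The HBBR slope changed sign, to 0.04, with the time points weighted equally, and to 0.09 without E3.

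The probe set of HBBR and HBBA rose by 0.56 ± 0.13 log2 units per day, with a limma adjusted p of 0.0283. That call was lost without E14 (slope 0.13, adjusted p = 0.774), without E4, E7 or E15, and under 8 other settings, among them every other floor and scaling tried. Without E14 the slope collapsed, while in the lost calls with no floor (0.626), without the arrays of raised median (0.651), without E4 (0.595) and without E15 (0.607) it was as large as with all data. It was also lost on leaving out any one of 7 single cells (E7 replicate 1 and E14 replicates 1, 2, 3, 6, 7 and 8), with adjusted p of 0.0503 to 0.08. The means of HBA1 and HBAD were high at both ends of the series and low between them, a course that a single slope does not describe.

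**Figure D4:**
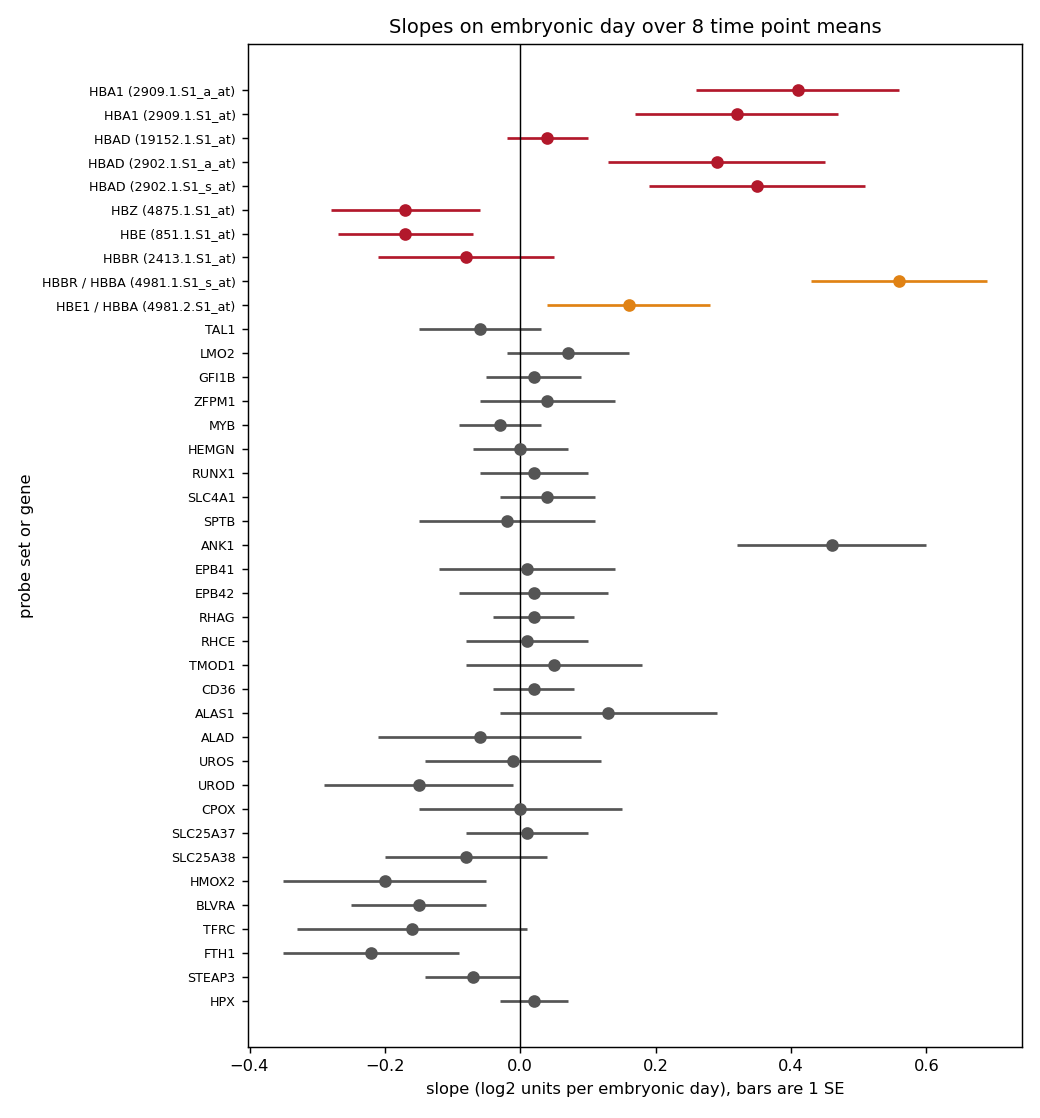
Slope of the 8 time point means on embryonic day (x axis, log2 units per day, bars are 1 SE) for the tested globin probe sets (red), the shared probe sets (orange) and the tested erythroid, heme and iron genes (grey). The probe set of HBBR and HBBA, at 0.56, lies farthest right.

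Other blood genes were read from lists of named genes, 76 of which were measured in all. These 76 also count 12 endothelial genes and 4 globins outside red cells. Among erythroid transcription factors, 7 genes were measured and none reached the higher mark in any of the 41 cells. Of all probe sets on the array, 66.6% did not reach it in any cell. TAL1, ZFPM1 and LMO2, all partners in the red cell programme, passed the lower mark in 14, 10 and 8 cells. Over the cells of E14 the summed floored log2 level of the list was 35.9 to 46.5, and over those of E9 it was 36.1 to 41.6. Genes at the floor add the same amount to this sum in every cell. GATA1, KLF1 and NFE2 were not analysed here.

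Of 11 measured erythroid membrane and receptor genes, 7 reached the higher mark in no cell, a share near the 66.6% of all probe sets. SLC4A1, the anion exchanger of the red cell membrane, was among them, and its highest value was 11.38, in E3 replicate 6. At E14, where HBA1 and HBAD were high in several cells, SLC4A1 ranged from 2.33 to 7.77. EPB41 (protein 4.1) was at the higher mark in 32 cells and SPTB (beta spectrin) in 0. ANK1 (ankyrin 1) was at the higher mark in 10 cells, 6 of them of E14, with a slope of 0.46 ± 0.14 and a limma adjusted p of 0.229. It read 13.64 in E14 replicate 5, which had no member at the higher mark, and 10.23 in replicate 3, which had HBA1 and HBAD.

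Of 8 measured genes of heme synthesis, 4 reached the higher mark in at least 3 cells, against 17.5% of all probe sets. ALAS1, the first enzyme of the pathway, did so in 19 cells, with 10.39, 14.77, 15.29, 5.40, 13.11, 14.98, 14.36 and 13.77 in E14 replicates 1 to 8. The 5 cells with HBAD at the higher mark were among the 6 with ALAS1 there. ALAS1 was also at the higher mark in 4 cells of E6, where no member was, and was below it in both cells of E3 that had all 5 members. Its mean was 9.38 at E6 and 12.76 at E14, and its slope was 0.13 ± 0.16 (limma adjusted p = 1). The RefSeq entry of this gene also lists ALAS2, the erythroid form, as a synonym, so the forms could not be told apart by name. ALAD and UROD, later enzymes of the pathway, were at the higher mark in 2 and 5 cells.

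Of 8 measured genes of heme breakdown and iron, FTH1 (ferritin heavy chain) reached the higher mark in 36 cells, HMOX2 (heme oxygenase 2) in 13 and TFRC (transferrin receptor) in 9. None of the 4 erythroid, heme and iron lists had a gene that rose or fell at an adjusted p under 0.05. Their median slopes were 0.02 for transcription factors, 0.02 for membrane genes, -0.01 for heme synthesis and -0.15 for heme breakdown and iron, beside 0.02 over all probe sets tested.

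Of 12 leukocyte genes 11, of 12 endothelial genes all 12, of 5 thrombocyte genes 4 and of 9 plasma protein genes 7 reached the higher mark in no cell, against 66.6% of all probe sets, which leaves the thrombocyte and plasma counts near that share. CD74, CSF1R and C1QC (leukocytes), ITGB3 and TBXAS1 (thrombocytes), AMBP (plasma) and ESAM, EGFL7 and TIE1 (endothelium) were all among them. ESAM passed the lower mark in 37 cells all the same. The genes detected most often that did reach the higher mark were F13A1 in 4 cells, TF in 2 and APOA1 in 1. At E14 the summed log2 level of the endothelial list was 63.7 to 73.7, and at E9, where no globin was at the higher mark, it was 64.9 to 69.1. For leukocytes these ranges were 60.1 to 69.7 and 61.5 to 74.2. These sums are of floored values, so genes at the floor add the same amount at both ages, and likeness of the ranges says little about them.

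The cells of E14 with globin signal carried retinal neuron genes as well. Each of the 8 cells of E14 had 7 to 9 of 10 measured neuron genes at the higher mark. The cells of E6 had 6 to 9 and those of E9 7 to 8, with no member at that mark. Over the series, 9 of the 10 reached it in at least 3 cells, against 17.5% of all probe sets. At E14, NEFL (neurofilament light chain) read 15.38 to 17.09 and TUBB3 (neuronal tubulin) 13.49 to 15.68. GAP43, of the same list, was at neither mark in any of these 8 cells, and ISL1 was at the higher mark in 1. No measured erythroid transcription factor was at the higher mark in any of them, but none was in any of the 41 cells. SLC4A1 was not at that mark either, though it passed the lower mark in replicates 6 (6.69) and 7 (7.77). ANK1, EPB41 and ALAS1, also of the erythroid and heme lists, were each at the higher mark in 6 of the 8 cells.

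At E3 the cells with all 5 globins differed from each other. In replicate 6, 10 of the 76 listed genes were at the higher mark, against 1 to 5 in the other 40 cells. Chosen after their values were seen, these include TSPO2, known from mammals as an erythroid relative of the translocator protein, at 15.49, against 1.81 to 5.47 in the other cells of E3. It was the only cell of 41 with TSPO2 at either mark. UROD read 16.26 there, CPOX, another enzyme of heme synthesis, 15.31, and ALAD 13.90. The summed log2 levels of the erythroid transcription factor (48.8), erythroid membrane (94.1), heme synthesis (86.7) and heme breakdown and iron (90.7) lists were the highest of the 6 cells of E3. The part of these genes in the result for E3 was not tested.

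Replicate 4 of E3 had the globins at 15.64 (HBA1), 17.01 (HBAD), 16.96 (HBZ), 16.87 (HBE) and 16.27 (HBBR). SLC4A1 read 4.21, TSPO2 4.36, FTH1 4.86 and ALAS1 3.90, none at the higher mark, and no gene of the erythroid or heme synthesis lists was there. TFRC at 14.75 and HMOX2 at 15.82 were, among 5 of the 76 listed genes. The others were GBE, LYZ of the leukocyte list and APOA1 of the plasma list. LYZ and APOA1 were each at the higher mark in this cell only. By its definition, about 5% of all probe sets pass that mark in any array. Replicate 4 carried 4 of 9 progenitor genes at the higher mark, among them NES (nestin) at 16.27 and VIM at 16.70. Its array had the lowest 95th percentile of all, 9.07, so that mark was easier to reach in this cell.

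**Figure D5:**
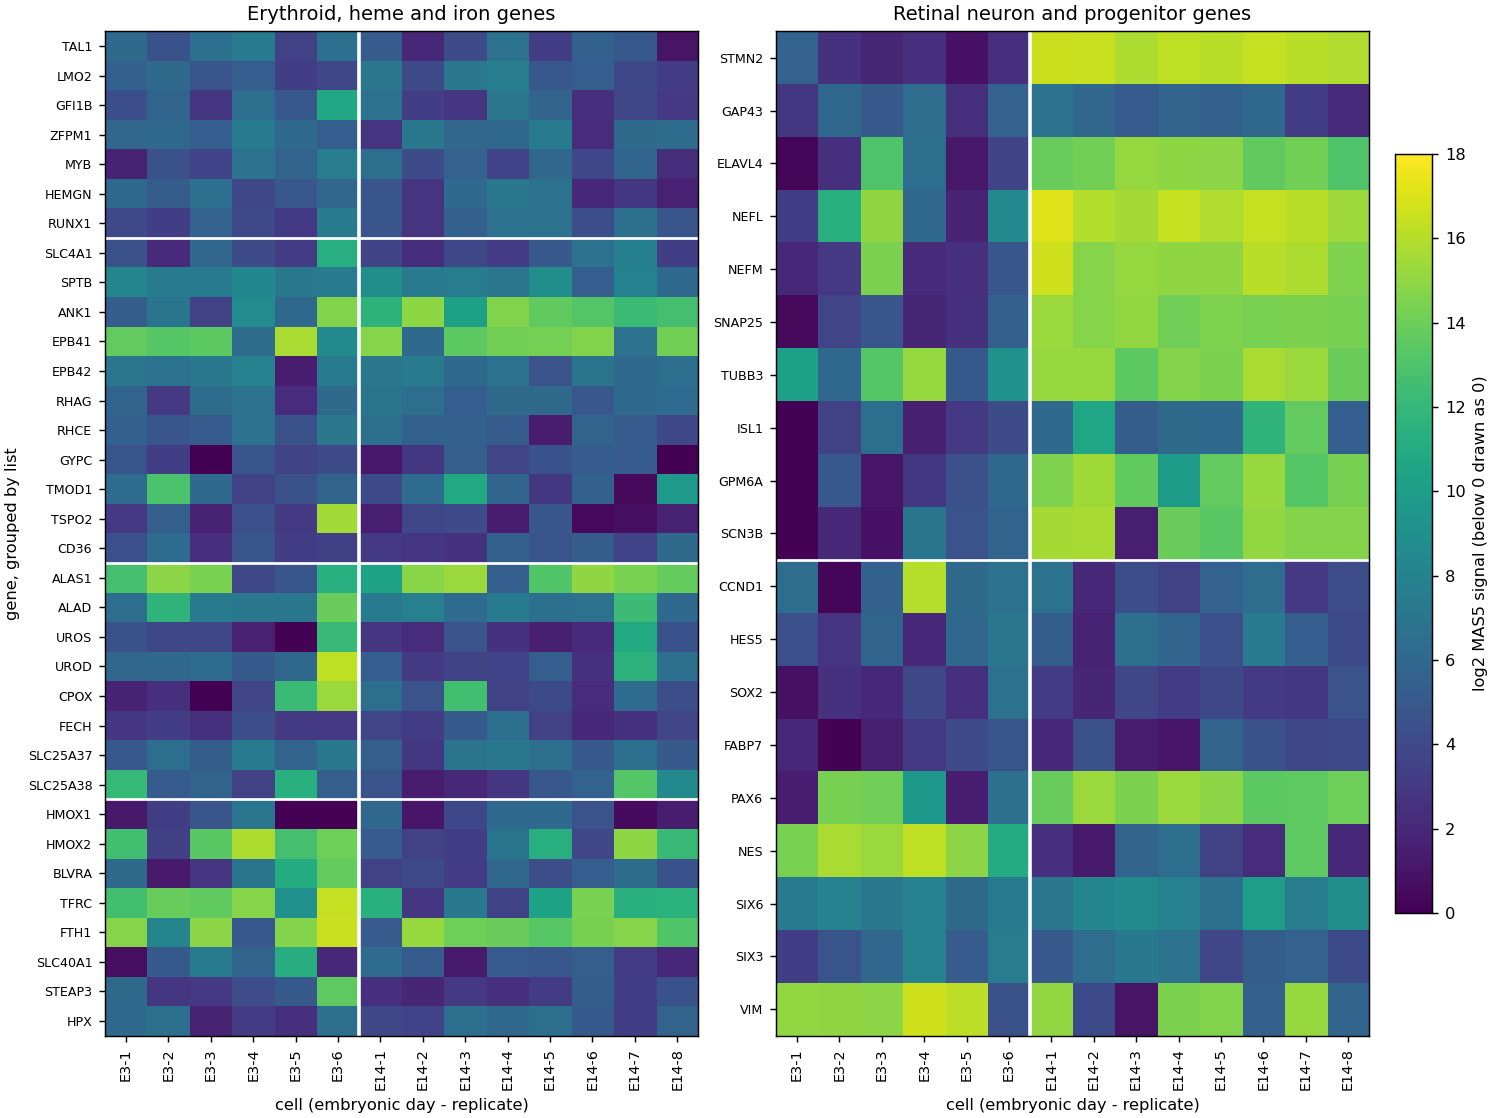
Deposited log2 MAS5 signal (colour) of the measured erythroid, heme and iron genes (left) and of the retinal neuron and progenitor genes (right) in the cells of E3 and E14 (columns). White lines part the lists and the ages. The neuron genes STMN2 and NEFL are bright in all 8 cells of E14, and TSPO2 is bright only in E3 replicate 6.

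Of 4 measured globins outside red cells, only GBE reached the higher mark. GBE, globin E of the bird eye, passed the lower mark in 39 of 41 cells and the higher mark in 5, and its mean ran from 9.05 at E14 to 12.69 in the cell of E7. Its r with the members over 41 cells was -0.30 for HBA1 and 0.05 for HBE. NGB (neuroglobin) and MB (myoglobin) passed the lower mark in 10 and 6 cells. MB had r = 0.23 with HBA1 and 0.32 with HBAD. CYGB (cytoglobin), at the lower mark in 5 cells with a highest value of 7.50, had r of 0.34 to 0.43 with the 5 members, all at low signal.

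The genes whose signal was most like that of a member, by Pearson r over 41 cells, were 12 genes for the 5 members. HBA1 had SCAP (0.69), PWP1 (0.63) and CTC1 (0.57), and HBAD had PWP1 (0.69), CTNND1 (0.67) and SCAP (0.66). HBZ had RAE1 (0.82), RBMS1 (0.72) and INVS (0.70). HBE had PRR11 (0.73), RAE1 (0.71) and AKIP1 (0.71), and HBBR had ZFAND2A (0.85), LSM10 (0.75) and SLBP (0.75). None of the 12 is in the blood or retinal lists, and 4 of them were at the higher mark in no cell, so their r rests on low signals. Without E3 replicate 6, over 40 cells, the 15 values were 0.60 to 0.88.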

How the data were processed

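Each of 41 single chick retinal cells was hybridised to its own 1-colour Affymetrix array, and the authors deposited 1 log2 value per probe set, computed, per the submitters' processing notes, by MAS5. Neither software version nor genome build is given in the sources used here. The 2% trimmed mean of linear values was 500.0 to 500.2 on every array. Of 38535 probe sets, 96 controls were left out. The platform annotation gives 27178 probe sets 1 symbol, 177 several and 11180 none, and 26863 matched a RefSeq gene ID of GRCg7b. The platform's gene ID of HBE has no match there.

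Values were floored at log2 5.0 for means, SDs, summed levels, correlations and fits. Time point means, weighted by their number of cells, were fitted on embryonic day with limma 3.58.1 (lmFit, eBayes with a trend, R 4.3.3), for probe sets that reached their array's 80th percentile in 3 or more cells, with Benjamini-Hochberg adjustment over all 24981, and the step was tested on simulated data. With 8 time points the fit has 6 residual degrees of freedom and 78.7 prior ones. Descriptive values were computed with pandas 2.3.3 and scipy 1.17.1. Where a gene has several probe sets, the one with the highest mean over cells was read. E6 replicate 1 is given as E5 by its source name but stayed at E6, as titled.

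Named genes are the members, ALAS2, GATA1 and SLC4A1, up to 3 genes of each list detected in the most cells, and the 3 probe sets most correlated with each member; others are marked as chosen after their values were seen, or are shown with the E3 cells they single out. The members and gene lists were chosen with earlier results of these data known. Alternatives covered floors, scalings, the filter, weights, percentiles, time points, arrays and single cells. No genome sequence was used.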

Additional observations from a re-analysis of the deposited data

Results flagged for a closer look

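In 53 groups of 4 to 10 cells of 1 age and 1 globin probe set, 19 held a cell whose gap to the next exceeded Dixon's 95% critical value. The chance rate of about 1 in 20 holds for normally distributed values. These values are floored at 5.0, so the count cannot be read against that rate. All 19 lay on the high side, and all were a single cell of an age. The tallest were in E3 replicate 6, where the probe set of HBBR and HBBA read 13.92 (next cell 6.04) and that of HBE1 and HBBA read 16.15 (next 7.96).

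HBA1 in E9 replicate 1 stood apart on both of its main probe sets, at 10.48 (next 7.02) and 9.94 (next 6.34). In E6 replicate 8 only 1 HBA1 probe set did, at 9.31 (next 5.63), and in E5 replicate 2 the other did, at 7.51 (next 5.34). HBA1 was also set apart at 5.45 in E5 replicate 5, and on its remaining probe set at 5.35 in E5 replicate 4 and at 5.81 in E6 replicate 5.

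HBAD read 9.57 (next 6.43) and 8.77 (next 6.70) in E6 replicate 7, an array of raised median, where the probe set of HBBR and HBBA read 8.62 (next 6.74). HBAD also read 6.48 in E9 replicate 6 and 6.32 in E6 replicate 4. HBE read 6.82 in E5 replicate 2, 6.58 in E9 replicate 5 and 5.81 in E14 replicate 3, HBBR read 5.86 in E9 replicate 2, and the probe set of HBBR and HBBA read 6.40 in E5 replicate 1. Where the other cells of a group are all at the floor, any value above it meets the criterion.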

How the results depend on the processing

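No member slope passed an adjusted p under 0.05 under any alternative. Only HBBR changed sign: 0.043 with equal weights (limma adjusted p = 0.962), 0.088 without E3 and 0.043 in the exact permutation of the 8 time points (two-sided p = 0.838, over 40320 orders). With 1 cell left out, slopes were 0.252 to 0.398 for HBA1, 0.266 to 0.426 for HBAD, -0.22 to -0.102 for HBZ, -0.222 to -0.096 for HBE and -0.131 to -0.015 for HBBR. The call of the HBBR and HBBA probe set was lost with no floor (adjusted p = 0.473), a floor at the 25th percentile (0.198) or at the signal of probe sets of other sequence (0.144), quantile normalization (0.284), a common 75th percentile (0.53), equal weights (0.548), late against early (0.585), without the 6 arrays of raised median (0.253), and without E4 (0.221), E7 (0.0503), E14 (0.774) or E15 (0.0882).

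The 33 rising probe sets became 0 with no floor, quantile normalization, the common 75th percentile, equal weights, without the raised arrays or without E4. They became 2 with the 25th percentile floor, 15 with the background floor, 55 with no filter, 13 for late against early, 6 without E3, 107 without E6, 16 without E7, 72 without E9, 8 without E14, 53 with E6 replicate 1 at E5 and 81 without the 2 cells of later accession, and 15 to 66 with 1 cell left out. The 0 falling (limma, 291 at an unadjusted p under 0.05) became 14 without E6, 1 without E14 and 0 to 1 with 1 cell left out.

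Counts of cells depended on the percentile chosen as a mark. Against the 80th percentile, the 90th gave 0 cells for HBA1 at E6, HBAD at E4 and E5, HBZ at E6, E9 and E14, HBE at E5 and E9, and HBBR at E6, with 5 for HBA1 at E14, 1 for HBBR at E5 and 2 for HBBR at E14. The 95th gave 0 for HBA1 at E5, E6 and E9, HBAD at E4 and E5, HBZ at E5, E6, E9 and E14, HBE at E5 and E9, and HBBR at E5, E6 and E14, with 4 for HBA1 at E14. The signal of probe sets of other sequence gave 1 for HBA1 and HBAD at E7 and 0 for HBE at E5. Quantile normalization moved mean levels to 8.09 (HBAD, E4), 6.09 (HBAD, E5), 5.79 (HBZ, E15), 5.65 (HBE, E15), 5.72, 8.54 and 5.69 (HBBR, E4, E5 and E9). Without the floor they were 4.72, 4.32 and 4.76 (HBAD, E5, E6 and E9), 4.38, 4.03, 3.90 and 4.06 (HBE, E5, E6, E9 and E14) and 4.73 (HBBR, E9). Of the 76 listed genes, those detected in at least 3 cells numbered 23 at the 90th percentile, where the share of all probe sets was not counted. They numbered 11 at the 95th, against 17.5% of all probe sets. The latter count was chosen after seeing the data. So were the counts, orders and correlations without E3 replicate 6, and the limit of orders to ages with a cell at the lower mark. The other 90 counts of cells and 60 levels, and all 200 levels with 1 cell left out, moved less than the spread. The cause of these changes was not tested. No paired analysis was possible because replicate numbers only count cells within an age and the fit uses time point means.

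Cells carry no embryo label, so age, embryo and amplification cannot be told apart, and E7 has 1 cell.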
